A study of Mus musculus with 6 samples.

Results

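RNA of primary osteosarcomas from *Nf2*-mutant mice was examined for 9 genes of the osteoblast lineage and of bone mineralization, among 39179 counted genes. The genes were taken by symbol: *Runx2*, *Sp7* and *Dlx5* (transcription factors), *Alpl* and *Phospho1* (phosphatases), *Bglap*, *Bglap2* and *Ifitm5* (products of mature osteoblasts) and *Pth1r* (a hormone receptor). Membership rested on the symbol alone, with no threshold on a measured value, and 9 of 9 were found in the counts and passed the low-count filter. The tumors were 3 of genotype *Cd44*+/+ (mice No244, No316 and No368) and 3 of genotype *Cd44*-/- (mice No203, No279 and No364). Both groups carry the same heterozygous *Nf2* allele (Nf2Δ2/+) on a mixed background of C57BL/6, 129/Sv and FVB, so there was no tumor without the *Nf2* mutation and no normal bone. The study's text describes the tumor tissues as untreated with doxorubicin, and age is not given. The tissue label and the study's methods name tumor tissue, while the extraction protocol in the labels names cell lines.

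Osteoblasts arise from mesenchymal progenitors that express *Runx2*, which is required for the lineage and acts upstream of *Sp7* (osterix). Maturing osteoblasts deposit collagen type I and release matrix vesicles, in which PHOSPHO1 frees phosphate from phospholipid head groups, while tissue-nonspecific alkaline phosphatase (*Alpl*) removes pyrophosphate, an inhibitor of mineral growth. Osteocalcin (*Bglap*, *Bglap2*) is a late, vitamin K-dependent product that binds mineral. Osteosarcoma is defined by malignant cells that produce bone matrix, and these genes are used to describe how far such cells have followed the osteoblast program.

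The promoters were read first, since RUNX2 is known to bind the osteocalcin promoter and since the study ties the intracellular domain of CD44 to a pair of short DNA elements, CIRE and TRE. RefSeq (GRCm38.p6) start sites were given for 6 of the 9 genes, with *Sp7*, *Bglap2* and *Dlx5* not matched. The 250 bases upstream of each start were searched on both strands for 3 elements and for the TATA box, TATAAA. The RUNX core was read as ACCACA. The study's CIRE was read as CCTGCG. The TRE was read as TGACTCA, the binding sequence of the factor AP-1. For 4 genes the matched windows are shown 5′ to 3′ on the strand of the gene, with matches of those 3 elements in capitals, the TATA box left in lower case, and without bases inside the gene as GENCODE draws it.
Bglap, chr3:88384467-88384716, minus strand: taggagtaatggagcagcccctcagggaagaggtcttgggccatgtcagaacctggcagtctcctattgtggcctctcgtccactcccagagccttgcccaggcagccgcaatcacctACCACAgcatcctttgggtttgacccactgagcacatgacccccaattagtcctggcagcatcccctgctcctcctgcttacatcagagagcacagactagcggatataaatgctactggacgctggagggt
Alpl, chr4:137796385-137796634, minus strand: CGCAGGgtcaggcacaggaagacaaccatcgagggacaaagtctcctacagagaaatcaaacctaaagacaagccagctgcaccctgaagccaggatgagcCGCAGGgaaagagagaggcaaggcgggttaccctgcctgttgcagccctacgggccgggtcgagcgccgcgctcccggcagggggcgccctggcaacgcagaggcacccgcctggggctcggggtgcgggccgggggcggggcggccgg
Ifitm5, chr7:140950292-140950493, minus strand: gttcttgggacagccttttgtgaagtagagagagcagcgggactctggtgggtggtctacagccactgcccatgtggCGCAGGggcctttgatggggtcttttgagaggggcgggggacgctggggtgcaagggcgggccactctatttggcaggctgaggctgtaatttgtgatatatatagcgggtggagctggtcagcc
Phospho1, chr11:95824250-95824498, plus strand: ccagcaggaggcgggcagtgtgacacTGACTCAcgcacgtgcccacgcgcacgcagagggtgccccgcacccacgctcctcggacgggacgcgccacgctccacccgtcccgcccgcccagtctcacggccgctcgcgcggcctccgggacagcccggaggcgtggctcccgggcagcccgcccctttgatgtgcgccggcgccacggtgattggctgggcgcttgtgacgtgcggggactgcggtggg

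The RUNX core was found once in the *Runx2* window, from 80 to 75 bases upstream of the RefSeq start and inside the first exon of longer GENCODE transcripts, and once in the *Bglap* window, from 132 to 127 bases upstream, where a TATAAA box follows from 27 to 22 bases upstream. CIRE was found at 2 places upstream of the first of the 2 *Alpl* starts and once in the *Ifitm5* window, each time on the opposite strand, and TRE once in the *Phospho1* window. The window of the second *Alpl* start and those of the 3 *Pth1r* starts held none of the 3 elements, though the second *Alpl* window held a TATAAA on the opposite strand, from 192 to 187 bases upstream. No match overlapped another. Of all 32851 RefSeq windows of this length, 14% held the RUNX core, 14.1% held CIRE, 4.46% held TRE and 12.4% held TATAAA. A match is a stretch of letters and not a bound site.

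Total counts lay between 18076388 and 26954142 per tumor, and the floor of 3 counts is from 0.099 to 0.252 normalized counts (CPM after TMM scaling). The targeted gene *Cd44* reached 137.3, 243.6 and 240.3 CPM in the *Cd44*+/+ libraries and 19.2, 15.7 and 61.8 CPM in those of *Cd44*-/- mice, where No364 was the highest. Of all counts, mitochondrial genes made up 55.2% in No244 and between 5.94% and 12.5% elsewhere. The counts of No316 and No368 agreed within sampling noise for 87.2% of 16671 genes, against 15.7% to 24.1% in the other 14 pairs of tumors. Of the 9 genes, 4 agreed in this pair and at most 2 in any other pair. By the figure over all genes, these libraries count as 1 sample in each mean ± SD (n = 2 for *Cd44*+/+). The fold changes, standard errors and p-values of the fits keep them as separate libraries, unless the pair is said to be summed. In No364 the 7 hepatocyte markers summed to 116000 CPM, against 36.5 to 140 CPM elsewhere. No279 and No364 also carried Y-linked RNA (*Ddx3y* at 18.9 and 22.5 CPM), with *Xist* at 0.726 and 0.994 CPM against 859 to 1240 CPM in the other tumors, and the part of sex in any result was not tested. In bulk tissue, fewer osteoblastic cells and less RNA per cell cannot be told apart.

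The main pattern was not a division by genotype. For 9 of 9 genes, the *Cd44*-/- tumors No279 and No364 held the lowest values, as they did for 14.4% of all 16839 genes tested. These were also the tumors with Y-linked RNA and little *Xist*, so this division and a division by sex cannot be told apart. The third *Cd44*-/- tumor, No203, lay above every *Cd44*+/+ tumor for *Runx2*, *Sp7*, *Alpl* and *Ifitm5*, among them for *Phospho1* and *Pth1r*, and below them for *Bglap*, *Bglap2* and, by less than the counting error, *Dlx5*. The plot of levels by tumor shows these positions.

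**Figure D1:**
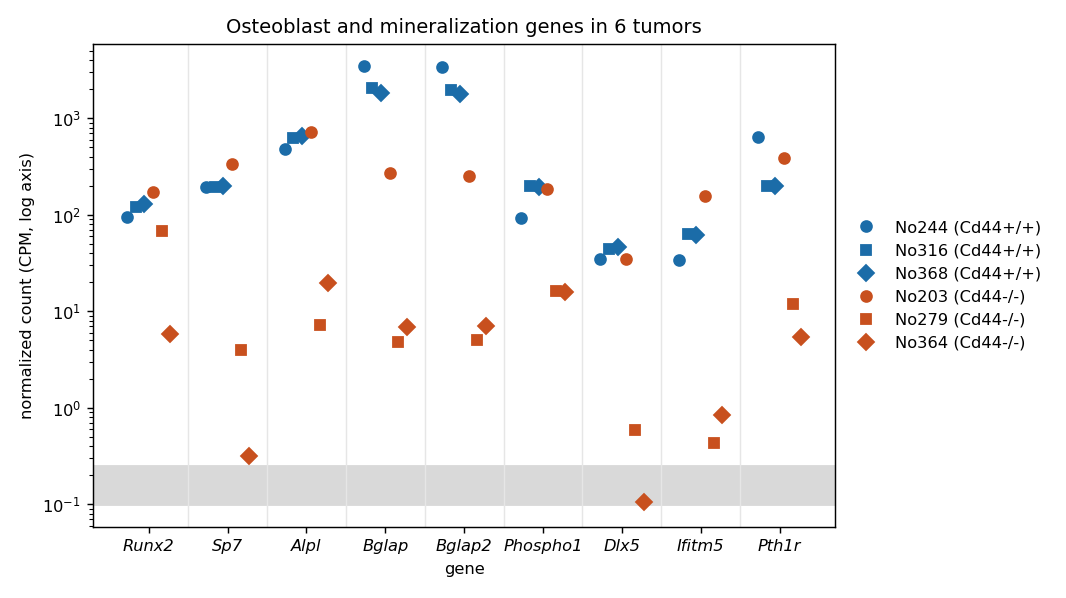
Normalized counts (CPM, log axis) of the 9 genes in each tumor, with *Cd44*+/+ tumors in blue and *Cd44*-/- tumors in orange and 1 point per library; the grey band spans the floors of 3 counts, 0.099 to 0.252 CPM. No279 and No364 are the lowest points for every gene, with *Runx2* in No279 (68.3 CPM) the one closest to the other tumors, and No203 sits apart from the *Cd44*+/+ tumors mainly for *Bglap* and *Bglap2*.

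*Runx2*, the transcription factor required for commitment to the osteoblast lineage, measured 95.03 CPM in No244, 122 CPM in No316 and 128 CPM in No368. The *Cd44*-/- values were 173 CPM for No203, 68.3 CPM for No279 and 5.76 CPM for No364. No279 thus kept *Runx2* within a factor of 1.39 of the lowest *Cd44*+/+ tumor, whereas No364 lay 16.5-fold below it. The means were 110 ± 21.2 CPM (SD, n = 2) and 82.4 ± 84.6 CPM (SD, n = 3), and the genotypes overlapped. The log2 fold change was -0.48 (standard error 0.99, edgeR adjusted p = 0.87, with No316 and No368 as separate libraries, as for each gene below). Without No364 the log2 fold change was 0.07. The gene lies on chromosome 17 of GRCm38 from 44495987 to 44814797 (minus strand), where *Supt3* and several antisense transcripts are annotated on the other strand. *Supt3* was at 10.7 to 16.8 CPM in all 6 tumors.

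*Sp7*, the zinc finger factor that acts after *Runx2* and is needed for bone formation, measured 192 CPM in No244, 192 CPM in No316 and 199 CPM in No368, the closest agreement of any of the 9 genes among these tumors. It was at 333 CPM in No203, at 3.96 CPM in No279 and at 0.314 CPM in No364, where 6 reads were counted (95% exact Poisson interval 0.115 to 0.683 CPM, counting error only). No203 was 84.1-fold above No279 within the same genotype. The means of 194 ± 2.34 CPM (SD, n = 2) and 112 ± 191 CPM (SD, n = 3) were nearer to each other than the *Cd44*-/- SD (log2 fold change -0.79, standard error 1.86, adjusted p = 0.889, edgeR). No other annotated gene overlaps *Sp7* (chromosome 15, 102356606 to 102367182).

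*Dlx5*, a homeobox factor of the bone-forming skeleton, gave 34.7 CPM (No244), 43.8 CPM (No316) and 45.9 CPM (No368) on one side and 34.5 CPM (No203), 0.594 CPM (No279) and 0.105 CPM (No364) on the other. The genotypes did not overlap, but No203 and No244 were closer than their counting intervals (32.2 to 36.9 and 31.4 to 38.2 CPM). In No364 only 2 reads were counted, under the floor of 3. Between genotypes the log2 fold change was -1.82 with a standard error of 1.67 (adjusted p = 0.683, edgeR).

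Set against *Runx2* within the same tumor, which removes differences that act on both genes alike, *Sp7* and *Dlx5* parted from it in 2 tumors. For each read of *Runx2* there were 2.02, 1.58 and 1.55 reads of *Sp7* in No244, No316 and No368 and 1.92 in No203. In No279 there were 0.058 (95% binomial interval 0.0479 to 0.0698) and in No364 0.0545 (0.0196 to 0.123). The ratio was therefore alike in 1 *Cd44*-/- tumor and the 3 *Cd44*+/+ libraries, and alike in the other two *Cd44*-/- tumors at a much lower value, although their *Runx2* levels differed (68.3 and 5.76 CPM). Reads of *Dlx5* per read of *Runx2* were 0.365, 0.359 and 0.358 in the *Cd44*+/+ tumors, 0.199 in No203, 0.0087 in No279 and, from 2 reads of *Dlx5*, 0.0182 in No364. These ratios compare tumors for a given pair of genes and are not levels.

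**Figure D2:**
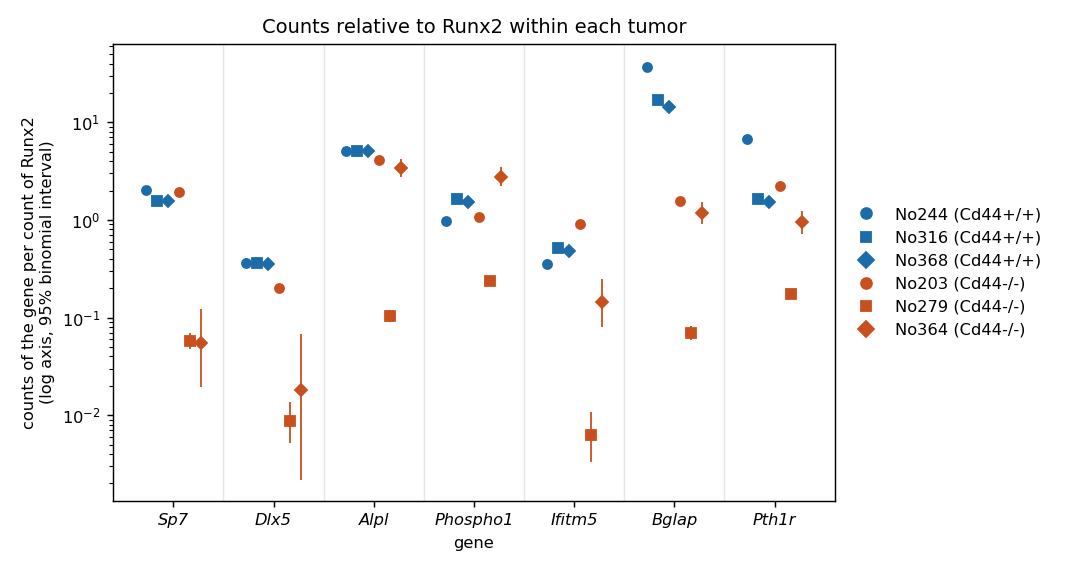
Counts of 7 genes per count of *Runx2* in each tumor (log axis, points with exact 95% binomial intervals that cover counting error only), in blue for *Cd44*+/+ and orange for *Cd44*-/- tumors. *Sp7* lies at 1.55 to 2.02 in 4 tumors and at 0.058 and 0.0545 in No279 and No364, while *Alpl* per *Runx2* separates No279 alone (0.105, against 3.41 to 5.08).

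*Alpl*, which encodes tissue-nonspecific alkaline phosphatase, measured 481 CPM in No244, 618 CPM in No316 and 648 CPM in No368. It measured 718 CPM in No203, 7.16 CPM in No279 and 19.6 CPM in No364. The genotypes overlapped, because No203 was the highest of the 6 tumors and 100-fold above No279. Per read of *Runx2*, *Alpl* was nearly constant in the *Cd44*+/+ tumors (5.06, 5.08 and 5.05), was 4.15 in No203 and 3.41 in No364, and was 0.105 in No279. In No364, *Alpl* thus kept close to its usual proportion to *Runx2*, and *Sp7* did not. The liver also expresses *Alpl*, and the part of the hepatocyte RNA of No364 in this value was not tested. The log2 fold change between genotypes was -1.23 (standard error 1.52, adjusted p = 0.768, edgeR).

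*Phospho1*, the phosphatase of matrix vesicles, gave 92.8 CPM (No244), 199.5 CPM (No316) and 196 CPM (No368), against 185 CPM (No203), 16.1 CPM (No279) and 15.9 CPM (No364). It varied least of the 9 genes, with 12.6-fold between the highest and the lowest tumor (log2 fold change between genotypes -1.17, standard error 1.03, adjusted p = 0.668, edgeR). Its counts are uncertain, since the strand setting of the counting is not given. *Abi3* on the opposite strand and *Zfp652* on the same strand overlap its exons (chromosome 11, 95824499 to 95832140), and 85.3% of its 51-base windows are also part of their transcripts. In No316 the counts were 5741 for *Phospho1*, 5980 for *Abi3* and 7027 for *Zfp652*. In No203 they were 4658, 4845 and 5654 in the same order, and in No244 1105, 1315 and 1625. In No279 they were 488, 772 and 1696, and in No364 303, 375 and 1111. *Phospho1* was thus the lowest of the 3 in each of these tumors. In proportion, it lay farthest below *Zfp652* in No279 and No364, whereas against *Abi3* No364 was near No244. Whether the same reads were counted for both genes was not tested.

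The osteocalcin genes gave the lowest fitted changes. *Bglap* measured 3481 CPM in No244, 2042 CPM in No316 and 1833 CPM in No368, and 269 CPM in No203, 4.79 CPM in No279 and 6.80 CPM in No364. All *Cd44*-/- libraries therefore lay below all *Cd44*+/+ libraries. *Bglap2* gave 3365 CPM (No244), 1984 CPM (No316) and 1783 CPM (No368), then 254 CPM (No203), 5.02 CPM (No279) and 7.12 CPM (No364), again without overlap. For *Bglap* the means were 2709 ± 1091 CPM (SD, n = 2) and 93.6 ± 152 CPM (SD, n = 3). The log2 fold changes were -4.71 (standard error 1.74) and -4.74 (standard error 1.71), both with an edgeR adjusted p of 0.452. With the DESeq2 Wald test both were called (adjusted p = 0.0307 and 0.0259), with No316 and No368 as separate samples. With this pair summed, the edgeR adjusted p of both was 0.818, and DESeq2 was not run that way.

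In No203 osteocalcin parted from the other genes. This tumor had the most *Runx2*, *Sp7*, *Alpl* and *Ifitm5* of all 6 tumors, and its *Bglap* and *Bglap2* levels were 0.0994 and 0.0968 times the *Cd44*+/+ means. Per read of *Sp7* there were 18.1, 10.6 and 9.22 reads of *Bglap* in No244, No316 and No368 and 0.808 (95% binomial interval 0.783 to 0.835) in No203. In No279 there were 1.21 (0.942 to 1.55), and the 6 *Sp7* reads of No364 leave its ratio between 9.69 and 60.1. The proportion of osteocalcin to *Sp7* was thus low in No203 and No279, while the high value of No364 rested on those 6 reads. Other genes per read of *Sp7* were also highest in No364 (*Alpl* 62.5, *Phospho1* 50.5). Per read of *Runx2*, *Bglap* was at 36.6, 16.8 and 14.3 in No244, No316 and No368. It was at 1.55 in No203, 0.0701 in No279 and 1.18 in No364, below every *Cd44*+/+ library.

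The values of *Bglap* and *Bglap2* are not independent. The genes lie side by side on chromosome 3 (88383501 to 88384464 and 88377736 to 88378699, minus strand), and 51.1% of the 51-base windows of *Bglap* and 68.9% of those of *Bglap2* are found in the other gene. The ratio of *Bglap2* to *Bglap* counts stayed between 0.943 and 1.05 in the 6 tumors, and the handling of reads that match both is not given in the sources used here. The third copy of the cluster, *Bglap3* (88368616 to 88372743), holds 18.8% of the windows of *Bglap* and 37.1% of those of *Bglap2*. Of the windows of *Bglap3* itself, 3.93% are shared with *Bglap* and 5.73% with *Bglap2*. *Bglap3* measured 2003 CPM in No244, 499 CPM in No316 and 428 CPM in No368, and 79.98 CPM in No203, 2.61 CPM in No279 and 5.76 CPM in No364. Per read of *Bglap* there were 0.233 to 0.297 reads of *Bglap3* in No316, No368 and No203, 0.575 in No244, 0.545 in No279 and 0.846 in No364, so that it was not a constant part of the cluster.

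*Ifitm5* (BRIL), a small membrane protein of mineralizing osteoblasts that is mutated in a form of brittle bone disease, divided the *Cd44*-/- tumors widely. It measured 34.0 CPM in No244, 63.1 CPM in No316 and 61.6 CPM in No368. It was at 158 CPM in No203, above every *Cd44*+/+ tumor, and at 0.429 CPM (13 reads) and 0.837 CPM (16 reads) in No279 and No364. The means, 48.2 ± 20 CPM (SD, n = 2) and 53.0 ± 90.8 CPM (SD, n = 3), were nearly equal (log2 fold change 0.00, standard error 1.82, adjusted p = 0.999, edgeR), although no *Cd44*-/- tumor was near that mean. Of its 51-base windows, 25.2% are shared with the annotated transcript *Gm45717* on the same strand.

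*Pth1r*, the receptor of parathyroid hormone and of its related peptide, measured 645 CPM in No244, 199.7 CPM in No316 and 197 CPM in No368. Its *Cd44*-/- values were 387 CPM (No203), 11.9 CPM (No279) and 5.44 CPM (No364). No203 lay within the *Cd44*+/+ range and the other *Cd44*-/- tumors far below it (log2 fold change -1.37, standard error 1.52, adjusted p = 0.738, edgeR). No244, the tumor highest in *Pth1r*, was also the highest for 5 of 5 skeletal muscle markers, which summed to 17200 CPM there and to 13.5 to 547 CPM in the others. *Myl3*, the muscle gene that overlaps *Pth1r*, was at 1.01 CPM in No244. The part of muscle RNA in this value was not tested.

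Since counts of different genes depend on their length, levels were compared between genes per kilobase of exon. In the *Cd44*+/+ tumors and in No203 the highest of the 9 were *Bglap2* (539 to 7150 CPM per kb) and *Bglap* (436 to 5630), and the lowest were *Runx2* (10.8 to 19.6) and *Dlx5* (15.2 to 20.3). *Runx2* and *Dlx5* overlapped in this range. *Bglap2* stood above *Bglap* through its shorter annotated length (0.471 against 0.618 kb), as *Bglap* had the higher CPM in each of these tumors. *Alpl* (119 to 178 CPM per kb) was above *Sp7* (56.5 to 98.0) in each of these 4 tumors. In No279 the order was flatter, with *Bglap2* at 10.7, *Phospho1* at 7.94, *Bglap* at 7.75 and *Runx2* at 7.73 CPM per kb, while *Sp7* was at 1.17. The place of *Phospho1* is as uncertain as its counts, given its overlap with *Abi3* and *Zfp652*.

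The genotypes were compared in 1 fit across all genes. With edgeR's quasi-likelihood test, 0% of the 16839 genes tested and 0 of the 9 genes had an adjusted p under 0.05. At an unadjusted p under 0.05, only *Bglap* and *Bglap2* of the 9 were lower in *Cd44*-/- tumors, where 4.31% of all genes were lower (725 genes) and 6.44% higher (1085 genes). This count of 2 was 0 without No244, without No279 or without No364, and 8 without No203. Over all genes tested, 886 of 17783 were lower without No244, 660 of 17502 without No279 and 735 of 17518 without No364. Without No203, 1365 of 17574 were lower. In all, 3 genes, *Bglap*, *Bglap2* and *Dlx5*, were apart between genotypes and lower in *Cd44*-/- tumors, as were 9.57% of all genes. None was apart and higher, as were 9.49% of all genes. The median log2 fold change was -1.23 over the 9 genes and 0.11 over all genes tested. With limma-voom on the same 6 libraries the median of the 9 was -3.73, with *Sp7* at -4.47, *Alpl* at -3.61, *Pth1r* at -3.32 and *Dlx5* at -4.81, and 0 of the 9 were called.

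DESeq2 called 1.12% of 17952 genes as lower in *Cd44*-/- tumors, *Bglap* and *Bglap2* among them, and 1.21% as higher, with none of the 9. It gave no adjusted p to 6 of the 9 genes (*Sp7*, *Alpl*, *Phospho1*, *Dlx5*, *Ifitm5* and *Pth1r*), and 0.896 to *Runx2*. Without its Cook's distance filter, a setting added after the counts had been seen, it again called 2 of the 9 genes. The plot of fold changes shows that the fit turned on No203. Without this tumor the log2 fold changes ran from -8.75 (*Bglap*) to -1.68 (*Runx2*), and none of the 9 had an adjusted p under 0.05 (from 0.103 to 0.433, edgeR). Leaving out No279 or No364 moved *Sp7*, *Alpl* and *Ifitm5* towards or above 0.

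**Figure D3:**
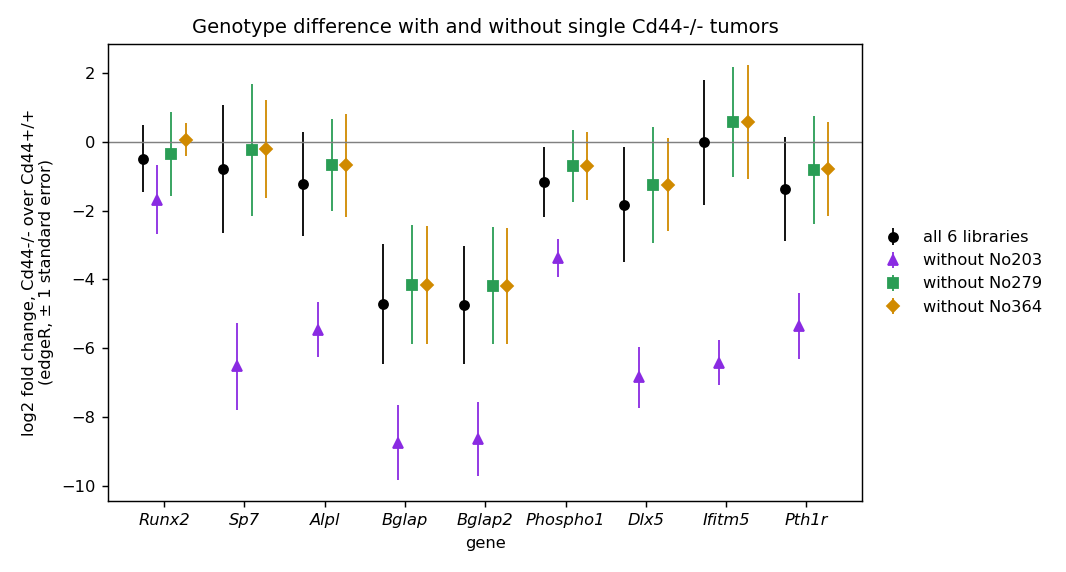
Log2 fold change of each of the 9 genes, *Cd44*-/- over *Cd44*+/+ (edgeR, bars of 1 standard error), with all 6 libraries in black and without No203, No279 or No364 in colour. Without No203 8 of the 9 genes are below -3, while with all libraries only *Bglap* and *Bglap2* (-4.71 and -4.74) lie more than 2 standard errors below 0.

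The spread of these genes between tumors was large for this data set. The SD of log2 CPM over 5 samples (No316 and No368 averaged) was 4.29 for *Sp7*, 4.45 for *Bglap*, 3.74 for *Dlx5* and *Ifitm5*, 3.15 for *Alpl* and 3.10 for *Pth1r*, where the median over all genes tested was 0.82. *Sp7* exceeded or equalled 99.4% of the genes tested and *Bglap* 99.6%, whereas *Runx2* (SD 1.95) and *Phospho1* (SD 1.82) exceeded or equalled 89.7% and 87.6%. Over the same 5 points, which share No364 as the tumor with liver RNA, Pearson's r between the 9 genes was from 0.64 to 1.0 in 36 pairs. The weakest pairs joined *Runx2* to *Alpl*, *Bglap* and *Bglap2* (0.64 each), and *Sp7* with *Dlx5* had 0.99. With so few points these values are a description.

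The genes most like the mean of the 9 (each scaled to unit variance, Pearson's r over 5 points, members left out) were *Spata13*, *Gm15599*, *Anks6*, *Gria2* and *Gm15663*, with r between 0.999 and 0.9995. The measure takes no account of the size of a change. *Spata13* was at 72.6 to 77.3 CPM in the *Cd44*+/+ tumors and No203 and at 41.5 and 37.3 CPM in No279 and No364. *Gria2*, a glutamate receptor subunit, was at 1.34 to 1.70 CPM in those 4 tumors, at 0.033 CPM in No279 and at 0 in No364. An r over 0.9 was reached by 3.98% of 16830 genes.

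Other regulators of the osteoblast were examined as a list of 20 genes, of which 18 were tested. *Runx1*, a relative of *Runx2* in blood and skeletal progenitors, was the 1 gene lower at an unadjusted p under 0.05 (log2 fold change -1.97, adjusted p = 0.452, edgeR), none was higher, and 11 of 18 had a log2 fold change below 0 (44.9% of all genes tested). The median was -0.21. *Runx1* was at 76.1 to 95.1 CPM in the *Cd44*+/+ tumors and at 28.7, 33.6 and 4.97 CPM in No203, No279 and No364, so that No203 lay with its genotype. *Runx1* and *Dlx6* were the 2 of 18 apart between genotypes, both lower, beside 9.57% of all genes. The highest fold change was that of *Twist2*, an inhibitor of RUNX2 (3.67, standard error 1.81), which was at 11.2 CPM in No279 and at 0.042 to 0.840 CPM in the other tumors. Further genes, named here after their values had been seen, divided as follows. *Dlx6*, the neighbour of *Dlx5*, was at 30.7 to 42.8 CPM in the *Cd44*+/+ tumors and No203, at 0.264 CPM in No279 and at 0 counts in No364. *Dlx3* was at 47.6 to 62.1 CPM in those 4 tumors and at 2.15 and 0.262 CPM in No279 and No364. *Cbfb*, which encodes the partner subunit of RUNX2, was at 94.1 CPM in No279, above the other 5 tumors (33.6 to 85.8 CPM). *Twist1* (98.6 CPM) and *Sox4* (136 CPM) were also highest in No279.

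Of 18 genes of phosphate handling and mineral growth, 17 were tested. Lower in *Cd44*-/- tumors at an unadjusted p under 0.05 were *Bglap3* (log2 fold change -5.05) and *Fam20c*, the kinase of secreted mineral-binding proteins (-2.29). *Anxa6*, an annexin of matrix vesicles, was higher (1.10), and each had an adjusted p of 0.452 (edgeR). DESeq2 called 2 of the list as lower and 0 as higher. *Fam20c* measured 134 CPM in No244, 302 CPM in No316 and 298 CPM in No368, and 61.1 CPM in No203, 31.8 CPM in No279 and 56.9 CPM in No364, and here too No203 lay with its genotype. The list's median log2 fold change was -0.51, with 4 of 17 genes apart and lower and 1 apart and higher, beside 9.57% and 9.49% of all genes. *Smpd3*, the sphingomyelinase needed for bone mineralization and named after its values were seen, was at 212 to 254 CPM in the *Cd44*+/+ tumors and No203, at 28.9 CPM in No364 and at 0.198 CPM in No279. *Ank*, which exports pyrophosphate, was at 265 CPM in No279 and at 40.8 to 131 CPM in the others.

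On the side of the hormone, parathyroid hormone itself (*Pth*) had 0 counts in all tumors. Its related peptide *Pthlh* was at 3.96 CPM in No279 and at 0.174 to 0.357 CPM elsewhere, the reverse of *Pth1r* in that tumor. Of 13 genes of the pathway 10 were tested, with a median log2 fold change of -0.22. *Arrb2* (β-arrestin, -0.92) was lower, and *Prkaca* (the catalytic subunit of protein kinase A, 0.87) and *Slc9a3r1* (a scaffold of the receptor, 2.27) were higher at an unadjusted p under 0.05, with adjusted p of 0.452, 0.452 and 0.46 (edgeR). *Slc9a3r1* was at 131 CPM in No364, the tumor with the hepatocyte markers, and at 10.6 to 17.5 CPM in the others. The lowest fold change was that of *Slc9a3r2*, -1.23.

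The bone label was checked against matrix markers. For collagen type I, *Col1a1* was at 8482 to 16920 CPM in *Cd44*+/+ tumors, 29440 CPM in No203, 11990 CPM in No279 and 765 CPM in No364. Its other chain, *Col1a2*, was at 16710 to 24970 CPM in *Cd44*+/+ tumors, 45690 CPM in No203, 8995 CPM in No279 and 656 CPM in No364. Bone sialoprotein (*Ibsp*) was at 640 to 1689 CPM in *Cd44*+/+ tumors and 4820 CPM in No203, but at 3.27 and 2.25 CPM in No279 and No364. Of the 6 matrix markers, 4 (*Col1a2*, *Ibsp*, *Spp1* and *Sparc*) were lowest in No279 and No364, beside 14.4% of all genes tested. The same held for 4 of 5 skeletal muscle markers and for 0 of 6 osteoclast markers. No279 held *Col1a1* within the *Cd44*+/+ range and was the highest tumor for osteomodulin (*Omd*, 529 CPM), while *Col1a2*, *Sparc* (5937 CPM, against 9063 to 9225) and *Spp1* (1444 CPM, against 3525 to 6416) were below that range. The hepatocyte markers of No279 summed to 56.0 CPM, inside the *Cd44*+/+ range of 36.5 to 97.9 CPM. Its osteoclast markers summed to 5990 CPM, within the *Cd44*+/+ range of 665 to 9190 CPM, whose upper end was No244. Of these markers in No279, *Ctsk*, *Ocstamp* and *Atp6v0d2* were above their *Cd44*+/+ ranges, and *Acp5*, *Calcr* and *Dcstamp* were within theirs. In No364 the matrix markers and the 9 genes had their lowest sums of the 6 tumors (4520 and 61.9 CPM). The hepatocyte markers had their highest sum there, and the part of each group of genes in the others was not tested.

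**Figure D4:**
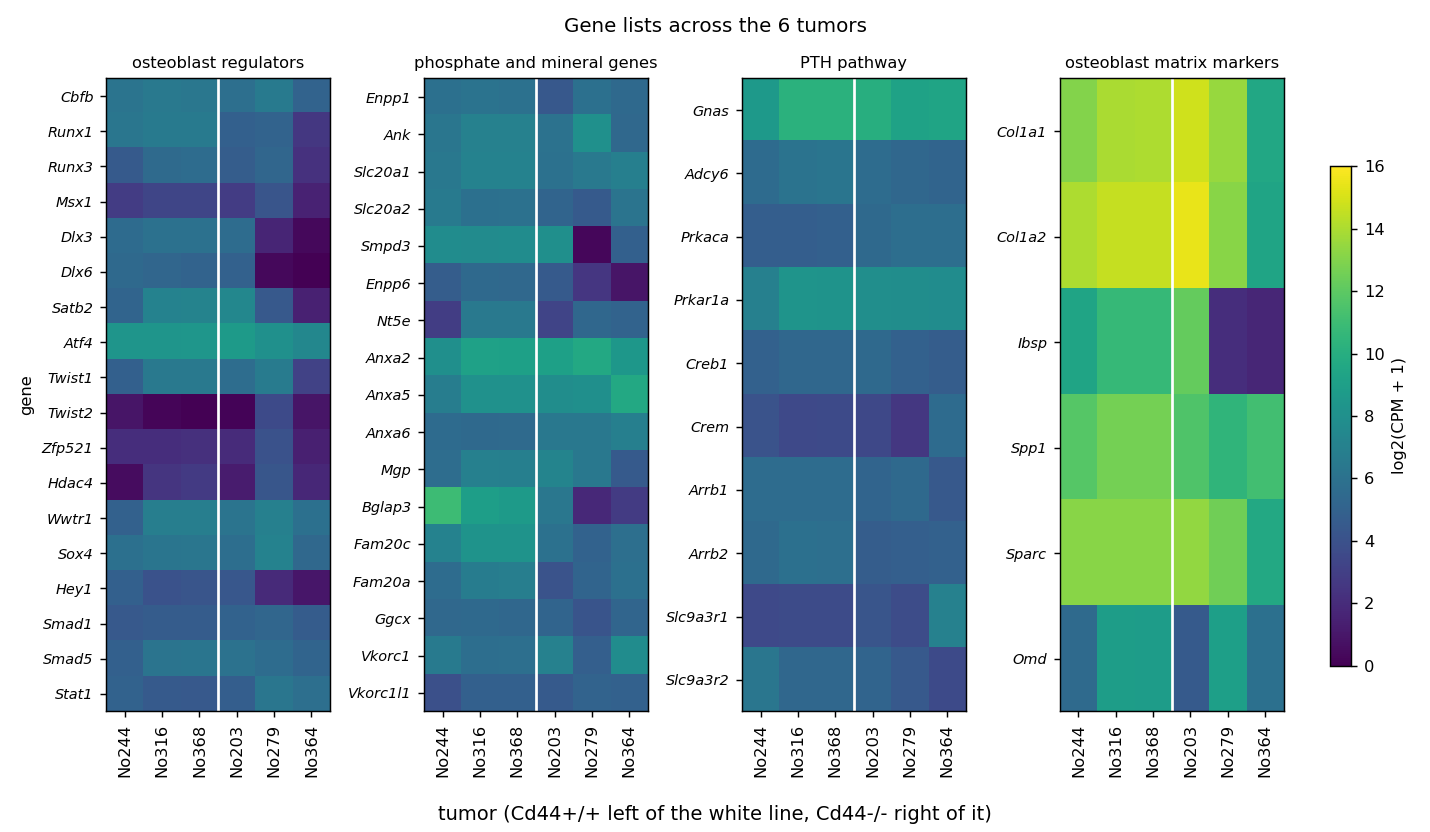
Log2(CPM + 1) of the tested genes of 4 lists (rows) in the 6 tumors (columns), with *Cd44*+/+ tumors left and *Cd44*-/- tumors right of the white line. *Dlx3*, *Dlx6*, *Smpd3*, *Bglap3* and *Ibsp* are dark in No279, where *Col1a1* (11990 CPM), *Sox4* and *Ank* are not, and *Col1a1*, *Col1a2*, *Ibsp* and *Sparc* are lowest in No364.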

How the data were processed

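RNA of 6 osteosarcomas was measured. Raw read counts for each Ensembl gene were deposited by the authors in 1 table, with a column for each tumor and no column unused. Per their methods and the processing notes, bcl2fastq 1.8.4, HISAT2 2.0.2 (GRCm38) and featureCounts (Subread 2.0.0) were used on libraries of a stranded kit. Strand and multi-mapping settings are not given in the sources used here, so overlapping or near-identical genes are uncertain. Symbols, found for 37607 of 39179 identifiers, lengths and coordinates came from GENCODE M21 (GRCm38), which may not be the release used for counting.

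Groups came from the sample titles. The genotype comparison used edgeR 4.0.16 under R 4.3.3 (filterByExpr, TMM, quasi-likelihood F test, genotype as the single factor, Benjamini-Hochberg adjustment at 0.05 over all genes tested). Standard errors were taken as |log2 fold change| over the root of F. CPM are scaled to the TMM library size, and log2 CPM used a prior count of 2. DESeq2 1.42.0 and limma-voom (limma 3.58.1) were alternatives. Each tool was tested on simulated counts with known changes. p-values measure the spread between tumors, of which No316 and No368 may not be independent. Count intervals cover counting error only.

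The genes and lists were chosen with earlier results of these data known. Named by rule are the 9 genes, *Cd44*, *Bglap3*, the 5 genes most like the mean of the 9, and genes of the regulator, mineral and hormone lists. Those listed genes had the extreme fold changes of their list or an unadjusted p under 0.05. For cell type markers the rule was applied in part only, and some that met it, such as *Kdr* and the single hepatocyte markers, are not named in the results. All others were named after their values had been seen.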

Additional observations from a re-analysis of the deposited data

How the results depend on the processing

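The 9 genes gave 135 fold changes under 15 alternatives, of which 122 kept their direction and their side of the threshold. *Bglap* and *Bglap2* stayed below 0 in all 15 (from -8.75 to -4.15 and from -8.64 to -4.18). *Ifitm5*, at 0.00 with all libraries, turned to -0.01 with the size factors of DESeq2 and in both DESeq2 fits, to -0.05 with library size alone, to -3.73 with limma-voom, to -0.23 without No244 and to -6.42 without No203, its leave-one-out range being -6.42 to 0.59. *Runx2* turned to 0.07 without No364 (leave-one-out range -1.68 to 0.07) and to 0.13 with No316 and No368 summed and No364 left out. The cause was not tested. The number of genes called was 0 in every edgeR and limma-voom fit, 419 with DESeq2 and 1195 with DESeq2 without Cook's distance filter (added after seeing the data), with 2 of the 9 genes in each of the DESeq2 fits. The number of the 9 genes that were lower at an unadjusted p under 0.05 ran from 0 to 8 with each tumor left out in turn, and was 0 with No316 and No368 summed and No364 left out. Over all genes tested, the number lower ran from 428 (without No316) to 1365 (without No203), and was 367 of 17304 in the fit with the pair summed and No364 left out. With each tumor left out, the median log2 fold change ran from -6.42 to -0.69 over the 9 genes, from -0.70 to 0.09 over the regulators, from -0.69 to -0.45 over the mineral genes and from -0.53 to -0.09 over the hormone pathway (all 6 libraries: -1.23, -0.21, -0.51 and -0.22), and Pearson's r of *Runx2* and *Sp7* (0.91) ran from 0.85 to 1.0. At an unadjusted p under 0.05, 725 genes were lower and 1085 higher, against 380 and 817 with library size alone, 949 and 591 with limma-voom, 437 and 324 with the near-identical pair summed, 428 and 335 without No316 and 445 and 339 without No368. Counts of 6 (*Sp7*) and 2 (*Dlx5*) limit what can be read from No364.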

Other observations

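Among the markers of other cell types, *Acan*, which encodes the large proteoglycan of cartilage, was at 153 CPM in the *Cd44*-/- tumor No279, at 10.1 CPM in No203 and at 10.3 CPM in No364. The *Cd44*+/+ tumors No244, No316 and No368 had 0.168, 1.36 and 0.882 CPM, so the genotypes did not overlap (log2 fold change 6.11, standard error 1.48, edgeR adjusted p = 0.452). *Col2a1*, the main collagen of cartilage, was at 0.627 CPM in No279 and highest in No244 (38.3 CPM). The 5 chondrocyte markers summed to 181 CPM in No279, most of it from *Acan*, and to 13.2 to 58.2 CPM in the other tumors. Of the others in No279, *Sox9* was at 17.7 CPM, near No364 (15.6 CPM). *Comp* was at 9.38 CPM, within the *Cd44*+/+ range, and *Col9a1* was at 0 CPM.

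Among osteocyte markers, *Dmp1* was at 147 to 229 CPM in the *Cd44*+/+ tumors and No203 and at 0.363 and 0.523 CPM in No279 and No364. *Phex* was at 15.95 CPM in No279, above No316 and No368 (7.96 and 7.89 CPM) and below No244 and No203 (53.8 and 70.0 CPM), and at 1.52 CPM in No364. *Mepe*, a later osteocyte product, was at 57.1 CPM in No203 and at 0 to 1.34 CPM in the other tumors, and *Sost* was at 8.17 CPM in No203 and at 0 to 1.32 CPM elsewhere. These values have no test of No203 against the rest.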
